A study of Mus musculus with 6 samples.

Results

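Pericentrin (*Pcnt*), *Cdk5rap2*, *Pcm1*, *Akap9*, *Akap6*, *Cep192*, *Cep152*, *Plk4*, *Sass6* and *Cntrob* encode centrosomal and nuclear envelope proteins that organize microtubules or build centrioles. They were taken by gene symbol, and each symbol matched a single row, giving 10 genes of the 54525 in the count tables. Their expression was measured by RNA-seq in C2C12 cells, an established mouse myoblast line that fuses into multinucleated myotubes when serum is reduced. The samples were 3 cultures of myoblasts at day 0 (D0) and 3 cultures after 5 days of differentiation (D5), labelled wild type and without treatment in both groups. C2C12 is a single immortalized line, so each culture is a replicate of that line and not of an animal. The labels call the cells of both groups myoblasts, and the D5 cultures are myotubes according to the study's methods. The comparison asks how transcripts of the microtubule-organizing machinery differ between dividing myoblasts and myotubes.

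In a dividing cell, microtubules grow from the centrosome, a pair of centrioles surrounded by pericentriolar material. *Pcnt*, *Cdk5rap2* and *Akap9* encode large scaffolds of that material, and *Pcm1* encodes the core of the centriolar satellites around it. In differentiating muscle these scaffold proteins move from the centrosome to the outer surface of the nuclei, which then nucleate the microtubules. *Akap6* encodes an A-kinase anchoring protein of the muscle nuclear envelope that holds *Akap9* and *Pcnt* proteins there. New centrioles are built once per cell cycle: *Cep192* and *Cep152* proteins recruit the kinase *Plk4*, *Plk4* starts duplication, *Sass6* forms the cartwheel of the new centriole, and *Cntrob* marks daughter centrioles. RNA-seq measures the transcripts only and gives no position of a protein.

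Gene counts per library ran between 36555048 and 40895840 for myoblasts, and for myotubes between 25449759 and 25811300. The summed level of 8 myotube markers lay between 66.2 and 81.0 CPM at D0 and between 13640 and 14520 CPM at D5, where CPM are counts scaled to a common library size with TMM factors, which take most genes as unchanged. That of the myoblast markers *Myod1*, *Myf5* and *Pax7* lay between 339 and 356 CPM at D0 and between 154 and 160 CPM at D5. The summed markers of osteoblasts, endothelial cells, leukocytes and neurons stayed at or below 3.31 CPM in every library. *Ibsp*, *Adgre1* and *Rbfox3* had 0 counts throughout. At D0 the leukocyte sum came from *Cd68* alone, with 124, 130 and 123 counts against 57, 63 and 46 in myotubes. *Kdr* made up most of the endothelial sum in myoblasts, with 90, 118 and 92 counts against 5, 6 and 5 in myotubes. Both genes were lower at D5, with log2 fold changes of -0.50 and -3.52 (adjusted p = 0.00299 and 3.9e-13 by edgeR's quasi-likelihood test). The adipocyte list went from at most 0.785 CPM at D0 to between 23.8 and 24.2 CPM at D5, nearly all of it from *Cebpa*, while *Adipoq* and *Plin1* had at most 1 count in any library. In such bulk libraries, fewer cells of a type and less RNA per cell cannot be told apart.

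All 10 genes passed the filter on low counts, and all 10 differed between D0 and D5. *Akap6* rose 4.82-fold and the other 9 fell, by amounts from 1.11-fold for *Akap9* to 9.96-fold for *Plk4*. By edgeR's quasi-likelihood test with Benjamini-Hochberg adjustment over 16290 genes, 82.9% of all genes tested passed 0.05, 40.8% lower and 42.2% higher at D5, so a call by itself is common here. The D5 libraries lay wholly below the D0 libraries for 9 of the 10 genes, against 41.1% of all genes tested, and wholly above them for *Akap6*, against 42.2%. The median log2 fold change of the 10 genes was -1.23, against 0.0022 over all genes tested. Tested against a fold of 1.5 with edgeR's glmTreat, 6 of the 10 genes passed as lower (21.3% of all genes tested) and *Akap6* as higher (24.4%). *Pcnt*, *Pcm1* and *Akap9* did not pass that test.

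**Figure D1:**
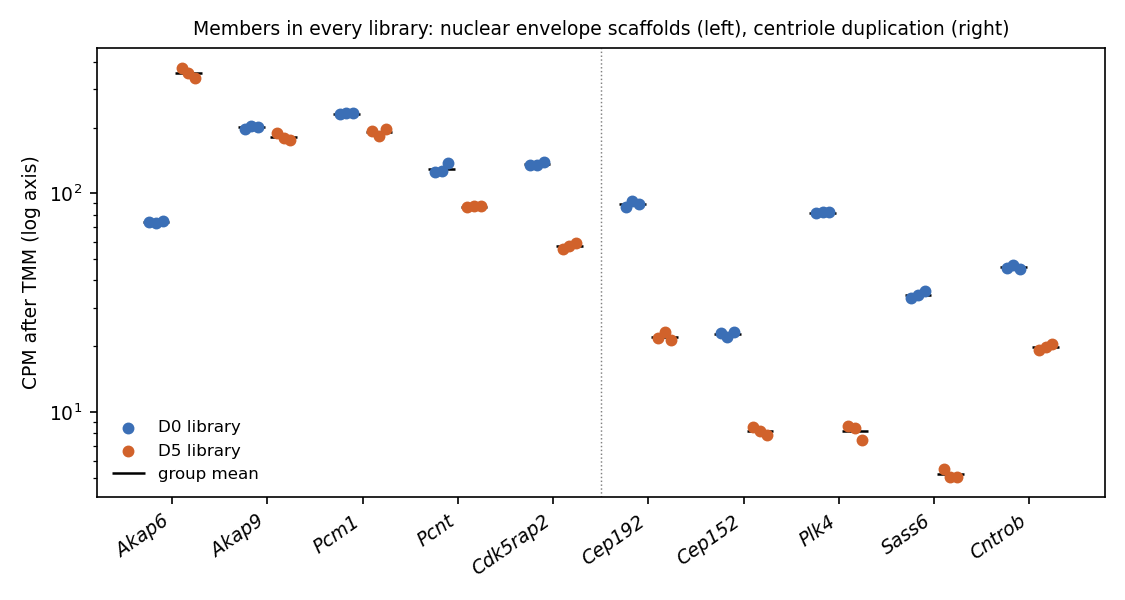
CPM after TMM scaling (log axis) of the 10 genes in each D0 library (blue) and D5 library (orange), with the group means as bars. *Akap6* is the gene whose D5 libraries (338 to 374 CPM) lie above its D0 libraries (72.9 to 74.7 CPM), and in the other 9 the D5 libraries lie below the D0 libraries.

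Grouped by known role, the genes ran over different ranges. The 5 nuclear envelope scaffolds (*Pcnt*, *Cdk5rap2*, *Pcm1*, *Akap9*, *Akap6*) had a median log2 fold change of -0.28 and ran from -1.25 to 2.27. The 5 centriole duplication genes (*Cep192*, *Cep152*, *Plk4*, *Sass6*, *Cntrob*) had a median of -2.02 and ran from -3.32 to -1.21. *Cdk5rap2* among the scaffolds and *Cntrob* among the centriole genes differed little in log2 fold change, at -1.25 and -1.21. The scaling of the libraries bore on the calls of the least changed genes: with scaling to the ERCC spike-ins, synthetic RNAs added to the samples, the median log2 fold change over all genes moved from 0.0022 to -0.58, and *Pcnt*, *Pcm1* and *Akap9* lost their call (adjusted p = 0.0744, 0.191 and 0.287 by edgeR's quasi-likelihood test). Their log2 fold changes were then more negative, at -1.14, -0.86 and -0.71, as those of all 10 genes shifted down with the median. Under that scaling *Akap6* was still called higher, with a log2 fold change of 1.71 (adjusted p = 0.0054).

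*Akap6* (ENSMUSG00000061603.8), a protein-coding gene at chr12:52699383-53155599 on the plus strand of GRCm38, was counted 2775, 3067 and 3010 times in D0 myoblasts and 9393, 8777 and 8415 times in D5 myotubes. These are 74.1, 72.9 and 74.7 CPM at D0 and 374, 356 and 338 CPM at D5. The lowest D5 library was well above the highest D0 library. The log2 fold change was 2.27 ± 0.037 (SE, adjusted p = 2.6e-30 by edgeR's quasi-likelihood test), and it stayed between 2.23 and 2.30 when any of the 6 libraries was left out. Among the 16290 genes tested, *Akap6* ranked 1561 by size of rise. None of its exonic length was shared with another gene of the annotation, and 0.195% of its 50-base stretches occurred in transcripts of other genes.

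*Pcm1*, *Akap9* and *Pcnt* fell the least. *Pcm1* (ENSMUSG00000031592.10, chr8:41239752-41332344, plus strand) had 231, 232 and 232 CPM at D0 and 194, 184 and 196 CPM at D5. Its D5 mean was 82.5% of its D0 mean, with a log2 fold change of -0.28 ± 0.033 (SE, adjusted p = 6.9e-09 by edgeR's quasi-likelihood test). *Akap9* (ENSMUSG00000040407.17, chr5:3928054-4081310, plus strand) had 197, 203 and 201 CPM at D0 and 188, 179 and 175 CPM at D5. The groups did not overlap, but the mean fell only to 90.2%, a log2 fold change of -0.15 ± 0.034 (SE, adjusted p = 0.000206 by edgeR's quasi-likelihood test), the smallest change of the 10 genes. *Pcnt* (ENSMUSG00000001151.10, chr10:76351263-76442786, minus strand) had 125, 127 and 137 CPM at D0 and 86.4, 87.4 and 87.7 CPM at D5. The D5 libraries of *Pcnt* were close together, and its mean fell to 67.2%, a log2 fold change of -0.57 ± 0.038 (SE, adjusted p = 1.1e-14 by edgeR's quasi-likelihood test).

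*Cdk5rap2* (ENSMUSG00000039298.16, chr4:70216856-70410443, minus strand), whose protein anchors and activates the gamma-tubulin ring complex, fell further. It had 135, 134 and 139.7 CPM at D0 and 55.9, 57.4 and 59.3 CPM at D5. The highest D5 library was less than every D0 library, and the mean fell to 42.2%. The log2 fold change was -1.25 ± 0.037 (SE, adjusted p = 1.6e-23 by edgeR's quasi-likelihood test). Its paralog *Pde4dip* (myomegalin, ENSMUSG00000038170.15) moved the other way, from 143 ± 3.14 CPM to 929.7 ± 13.7 CPM (SD, n = 3 in each group), a log2 fold change of 2.70 ± 0.034 (SE, adjusted p = 2.6e-33 by edgeR's quasi-likelihood test). Per exonic length, the ratio of *Pde4dip* to *Cdk5rap2* went from 0.812 ± 0.0319 at D0 to 12.5 ± 0.349 at D5 (SD, n = 3). *Cdk5rap2* shared 3.01% of its 50-base stretches with transcripts of 22 other genes, whose names were not recorded.

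*Cep192* (ENSMUSG00000024542.9, chr18:67800107-67885170, plus strand) had 86.4, 91.9 and 89.8 CPM at D0 and 21.7, 23.2 and 21.3 CPM at D5. Its mean fell to 24.7%, a log2 fold change of -2.02 ± 0.046 (SE, adjusted p = 1.4e-26 by edgeR's quasi-likelihood test). *Cep152* (ENSMUSG00000068394.4, chr2:125563088-125625113, minus strand), the least abundant of the 10 genes at D0, had 23.0, 22.1 and 23.1 CPM at D0 and 8.52, 8.20 and 7.84 CPM at D5. The mean of *Cep152* fell to 36.0%, a log2 fold change of -1.47 ± 0.066 (SE, adjusted p = 6.9e-19 by edgeR's quasi-likelihood test). *Cntrob* (ENSMUSG00000032782.19, chr11:69299487-69323775, minus strand), the daughter centriole gene, had 45.8, 47.1 and 44.9 CPM at D0 and 19.2, 19.8 and 20.5 CPM at D5. Its mean fell to 43.2%, the smallest fall of the 5 centriole duplication genes, with a log2 fold change of -1.21 ± 0.049 (SE, adjusted p = 5.5e-20 by edgeR's quasi-likelihood test).

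Among the 5 centriole duplication genes, *Plk4* (ENSMUSG00000025758.10, chr3:40800019-40816883, plus strand) fell the most. Its counts were 3041, 3441 and 3308 in D0 myoblasts and 217, 209 and 186 in D5 myotubes, or 81.2, 81.8 and 82.1 CPM against 8.64, 8.48 and 7.48 CPM. The kinase transcript was thus left at 10.04% of its D0 mean, with an SD of 0.495 CPM at D0 and 0.631 CPM at D5 (n = 3). Both of its recruiters were left at higher shares. The log2 fold change was -3.32 ± 0.055 (SE, adjusted p = 3.1e-30 by edgeR's quasi-likelihood test), rank 457 by size of fall among the genes tested.

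*Sass6* (ENSMUSG00000027959.14, chr3:116594982-116631004, plus strand) followed with 33.2, 34.2 and 35.6 CPM at D0 and 5.49, 5.07 and 5.06 CPM at D5, or 15.2% of the D0 mean. The log2 fold change was -2.72 ± 0.068 (SE, adjusted p = 1.8e-25 by edgeR's quasi-likelihood test). Of its exonic length, 30.9% lies opposite *Trmt13* and *Gm42893* on the other strand, and the strand setting of the counting is not given in the sources used here. *Trmt13*, a tRNA methyltransferase gene, had 14.2, 15.0 and 14.6 CPM at D0 and 14.2, 11.97 and 14.2 CPM at D5, and the counts of *Gm42893* did not exceed 26. Reads of these genes may be among those counted for *Sass6*, and their part in the result was not tested.

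The promoters of *Akap6*, the gene that rose, and of *Plk4*, *Sass6* and *Cep152*, which fell together, are shown because the members moved in opposite directions. Each is the 250 bases before the RefSeq transcription start in GRCm38.p6, written 5′ to 3′ on the strand of the gene. That start is also a transcript start of the GENCODE annotation for *Akap6* and *Cep152*, but not for *Plk4* and *Sass6*. The windows are chr12:52699133-52699382 (plus) for *Akap6*, chr3:40799701-40799950 (plus) for *Plk4*, chr3:116594708-116594957 (plus) for *Sass6* and chr2:125625114-125625363 (minus) for *Cep152*. Capitals mark matches, on either strand, to the letters TTTNNCGC (E2F-type), TTTGAA or TTCGAA (the cell-cycle homology region and a variant), and CAGCTG or CACCTG (E-boxes that myogenic factors can bind).
Akap6: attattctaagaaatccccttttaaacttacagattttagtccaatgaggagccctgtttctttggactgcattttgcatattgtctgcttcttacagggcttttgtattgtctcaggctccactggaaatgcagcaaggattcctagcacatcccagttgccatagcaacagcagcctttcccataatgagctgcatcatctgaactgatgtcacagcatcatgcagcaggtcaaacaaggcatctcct
Plk4: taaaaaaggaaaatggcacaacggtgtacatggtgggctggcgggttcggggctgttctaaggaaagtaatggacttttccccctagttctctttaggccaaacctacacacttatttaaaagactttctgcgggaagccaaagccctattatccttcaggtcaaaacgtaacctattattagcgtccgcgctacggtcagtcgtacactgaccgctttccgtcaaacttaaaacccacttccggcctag
Sass6: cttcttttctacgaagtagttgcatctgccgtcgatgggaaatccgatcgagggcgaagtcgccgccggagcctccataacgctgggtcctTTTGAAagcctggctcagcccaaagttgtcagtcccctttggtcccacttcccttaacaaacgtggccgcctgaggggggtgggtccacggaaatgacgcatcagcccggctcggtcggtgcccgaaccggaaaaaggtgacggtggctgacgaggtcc
Cep152: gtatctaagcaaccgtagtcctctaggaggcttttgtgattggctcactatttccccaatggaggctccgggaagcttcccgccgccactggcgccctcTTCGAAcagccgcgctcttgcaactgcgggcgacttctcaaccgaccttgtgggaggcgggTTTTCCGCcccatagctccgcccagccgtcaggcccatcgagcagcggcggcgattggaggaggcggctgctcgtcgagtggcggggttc

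Windows were given for 7 of the 10 genes, all but *Pcm1*, *Cep192* and *Cntrob*. *Cep152* held TTTNNCGC 90 bases and TTCGAA 151 bases before the start, and *Sass6* held TTTGAA 159 bases before it. Of 32841 promoter windows of the same length, 4.28% held TTTNNCGC, 15.99% TTTGAA and 1.34% TTCGAA on either strand. None of the capitalized letters occurred in the windows of *Plk4*, *Akap6*, *Akap9* and *Cdk5rap2*, and *Pcnt* held CACCTG, which 17.2% of all windows hold. CAGCTG, held by 13.0% of all windows, was in none of the 7. The letters CCAAT, not capitalized, occurred 3 times for *Cep152* and once each for *Akap6* and *Akap9*, against 33.9% of windows with at least 1. The *Akap6* window had no CG dinucleotide and a GC content of 43.6%. The other 6 windows had from 13 to 23 CG dinucleotides, with 13 for *Plk4*, and the median over all windows was 6. These matches are a description of the letters only.

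Levels were compared between genes as TPM, in which counts are divided by exonic length and scaled to a common sum. At D0 *Pcm1* had the highest level, 108 ± 2.04 TPM (SD, n = 3, as for the TPM values that follow). *Plk4* was next at 41.2 ± 0.889 TPM, then *Pcnt* at 36.9 ± 2.39 TPM and *Cdk5rap2* at 36.3 ± 1.23 TPM, whose libraries overlapped. *Akap9* had 32.5 ± 0.950 TPM, *Cep192* 24.8 ± 1.08 TPM and *Cntrob* 23.9 ± 0.599 TPM, and the libraries of *Cep192* and *Cntrob* overlapped. *Sass6*, *Akap6* and *Cep152* stood last with 19.4 ± 0.991, 17.2 ± 0.376 and 13.7 ± 0.395 TPM. *Akap6*, second lowest at D0, was thus among the least expressed of the 10 genes in myoblasts.

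At D5 *Pcm1* (79.6 ± 3.83 TPM) and *Akap6* (74.4 ± 4.95 TPM) headed the order, and their libraries overlapped. *Akap9* (26.3 ± 1.46 TPM), *Pcnt* (22.2 ± 0.297 TPM) and *Cdk5rap2* (13.7 ± 0.299 TPM) came after them. The 5 centriole duplication genes took the 5 lowest places, from *Cntrob* at 9.23 ± 0.241 TPM through *Cep192* (5.49 ± 0.203 TPM), *Cep152* (4.40 ± 0.255 TPM) and *Plk4* (3.71 ± 0.323 TPM) to *Sass6* at 2.64 ± 0.178 TPM. No other neighbours in the D5 order overlapped between libraries. *Plk4* thereby went from the second place at D0 to the second lowest at D5.

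**Figure D2:**
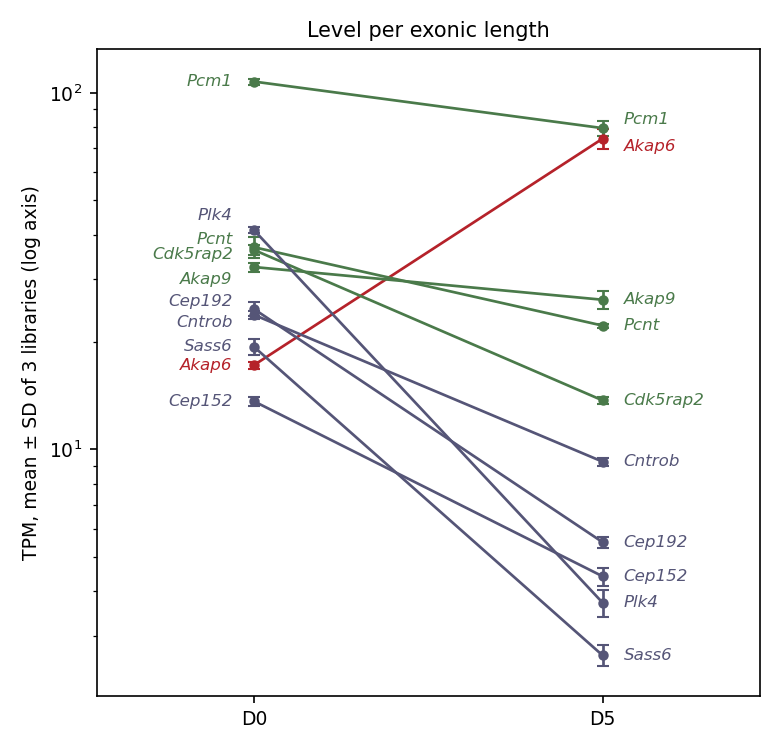
Mean TPM ± SD of 3 libraries (log axis) at D0 and D5, with *Akap6* in red, the other nuclear envelope scaffolds in green and the centriole duplication genes in blue-grey. The line of *Akap6* runs from 17.2 to 74.4 TPM and crosses those of all members but *Cep152* and *Pcm1*, and the line of *Plk4* falls from 41.2 to 3.71 TPM.

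The summed level of the 5 nuclear envelope scaffolds was 230.5 ± 6.66 TPM at D0 and 216 ± 9.04 TPM at D5 (SD, n = 3), and the libraries overlapped. Without *Akap6* it was 213 ± 6.31 and 142 ± 5.26 TPM. TPM carry no TMM factors, so the direction of a small difference in sums depends on the scaling. The makeup of the sum of all 5 differed. *Akap6* made up 7.48% ± 0.0896 at D0 and 34.4% ± 1.24 at D5 (SD, n = 3). The share of *Pcm1* went from 46.7% to 36.8%, of *Pcnt* from 16.01% to 10.3%, of *Cdk5rap2* from 15.7% to 6.35% and of *Akap9* from 14.1% to 12.1%. The summed level of the 5 centriole duplication genes went from 123 ± 3.29 to 25.5 ± 0.664 TPM. Within that sum *Plk4* went from 33.6% to 14.6% and *Sass6* from 15.8% to 10.4%, *Cntrob* went from 19.4% to 36.3% and *Cep152* from 11.1% to 17.3%, and *Cep192* stayed near the same share, 20.1% and 21.5%.

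**Figure D3:**
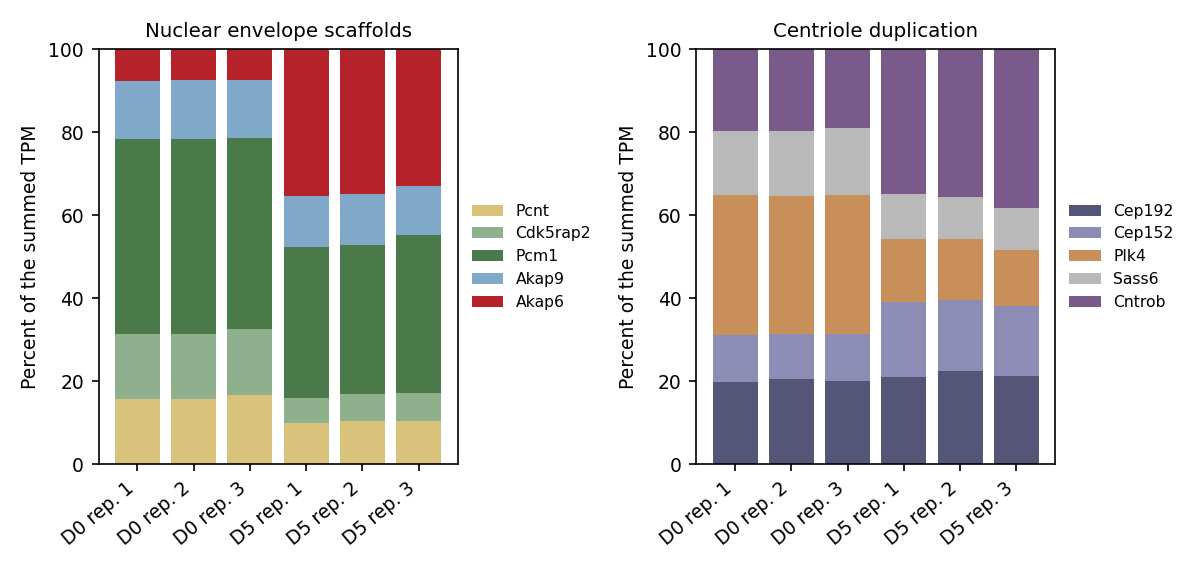
Share of each gene in the summed TPM of its set (percent), for every library. *Akap6* (red) widens from 7.48% to 34.4% of the scaffold sum on average, and in the centriole set *Plk4* narrows from 33.6% to 14.6% as *Cntrob* widens from 19.4% to 36.3%.

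A ratio of 2 genes in the same library does not depend on how libraries are scaled. The TPM ratio of *Akap6* to *Akap9*, whose protein it anchors, went from 0.531 ± 0.0126 to 2.83 ± 0.0517 (SD, n = 3), and that of *Akap6* to *Pcm1* from 0.160 ± 0.00206 to 0.936 ± 0.0603. *Plk4* exceeded its recruiter *Cep152* at D0, with a ratio of 3.02 ± 0.0820, and was below it at D5, with 0.842 ± 0.0353. Their mean CPM at D5 were nearly equal, 8.20 for *Plk4* and 8.19 for *Cep152*. The position of *Plk4* below *Cep152* thus rests on the exonic lengths used, 6855 and 5768 bases. As counts relative to *Pcm1*, the log2 ratio rose by 2.54 for *Akap6* and by 0.13 for *Akap9*. For the others it fell, with differences (D5 minus D0) of -0.29 for *Pcnt*, -0.93 for *Cntrob*, -0.97 for *Cdk5rap2*, -1.198 for *Cep152*, -1.74 for *Cep192*, -2.44 for *Sass6* and -3.04 for *Plk4*. The D0 and D5 libraries did not overlap in any of the 9 ratios, and each had a two-sided exact permutation p = 0.1, the smallest that 3 against 3 libraries allow. Such separation is common here: as single genes, 41.1% of all genes tested lay wholly lower at D5 and 42.2% wholly higher. The share over ratios of other genes was not computed. Such ratios show unequal change and not which gene of a pair changed.

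Genes that work with the members were followed in 5 lists, read against the 40.8% of all genes tested called lower and the 42.2% called higher. Of 22 tested genes of the gamma-tubulin ring and of microtubule minus ends, 17 were called lower, 4 higher and *Mzt2* was not called, with a median log2 fold change of -0.41. *Tubg1*, gamma-tubulin itself, fell to 38.7% of its D0 mean (53.4 ± 0.347 to 20.7 ± 1.43 CPM, SD, n = 3), and the augmin subunits *Haus5* and *Haus6* to 16.4% and 23.8%. Besides *Pde4dip*, with the largest rise of the list at 6.48-fold, *Haus7* was called higher at 2.16-fold with TMM but not with scaling to the ERCC spike-ins (adjusted p = 0.406 by edgeR). *Mzt1* was called higher at 1.23-fold with TMM but had a log2 fold change of -0.27 with scaling to the ERCC spike-ins.

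Of 30 tested genes in the list of other centriole assembly genes, 22 were called lower and 8 higher, with a median log2 fold change of -0.91. *Stil*, which works with *Plk4* and *Sass6* at the start of duplication, fell to 3.27% of its D0 mean (62.0 ± 2.52 to 2.02 ± 0.180 CPM, SD, n = 3), with a log2 fold change of -4.93. *Tedc1* and *Tube1*, of the complex that stabilizes centriole triplets, fell to 11.1% and 13.0%. Its members *Tedc2* and *Tubd1* had log2 fold changes of -1.31 and 0.67 with TMM, so the complex did not move as a unit. With TMM, *Cetn2*, a centrin, was called higher at 2.19-fold, *Tubd1*, delta-tubulin, at 1.60-fold and *Btrc*, a ubiquitin ligase subunit, at 1.58-fold, but none of them was called under ERCC scaling (adjusted p = 0.415, 0.828 and 0.910 by edgeR). The changes of *Plk4* and *Sass6* thus lay within the range of this list, -4.93 to 1.13.

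Of 29 tested genes of the satellites, the linker between centrioles and the appendages, 20 were called lower and 6 higher, and *Ccdc66*, *Cep131* and *Pibf1* were not called, with a median log2 fold change of -0.72. *Nek2*, the kinase that dissolves the linker before mitosis, fell to 5.39%, *Ccdc18* to 8.01% and *Cep72* to 20.03% of the D0 mean. *Cep350*, *Ssx2ip* and *Mib1* were called higher with TMM (1.495-, 1.43- and 1.41-fold), while with scaling to the ERCC spike-ins their log2 fold changes were -0.0032, -0.054 and -0.064.

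Of 28 tested nuclear envelope anchors and *Akap6* partners, 15 were called lower, 12 higher and *Ppp3cb* was not called, with a median log2 fold change of -0.13. The nesprins, which tie the nucleus to the cytoskeleton, differed in direction. *Syne1*, nesprin-1, which recruits *Akap6* to the envelope, was called higher with TMM at 2.68-fold (82.8 ± 3.42 to 222 ± 8.69 CPM, SD, n = 3), but not with scaling to the ERCC spike-ins (log2 fold change 0.87, adjusted p = 0.187 by edgeR). *Syne2*, nesprin-2, fell to 15.1% (298 ± 2.00 to 44.96 ± 0.361 CPM). Their TPM ratio, *Syne1* to *Syne2*, went from 0.183 to 3.26. *Ryr1*, the calcium release channel of skeletal muscle, rose 168-fold and was also a myotube marker here. *Ppp3ca*, a catalytic subunit of calcineurin, was called higher at 3.41-fold with TMM, with an adjusted p = 0.0589 by edgeR under scaling to the ERCC spike-ins. *Lmnb1*, a lamin, fell to 4.71% and *Prkar2b*, a regulatory subunit of protein kinase A, to 23.1%.

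Of the 22 mitotic centrosome kinases and cell-cycle markers, 20 were called lower and 2 higher, with a median log2 fold change of -4.65. *Plk1* and *Aurka*, kinases that enlarge the centrosome for mitosis, fell to 2.17% and 2.65% of the D0 mean, and *Ccna2*, cyclin A, to 2.78%. The kinases *Nek7* and *Nek9* were called higher with TMM at 2.34-fold and 2.01-fold, and were not called with scaling to the ERCC spike-ins (adjusted p = 0.328 and 0.530 by edgeR). The proliferation marker *Mki67* went from 704 ± 9.93 to 20.4 ± 2.01 CPM (SD, n = 3) and thus moved with the 5 centriole duplication genes, by a larger log2 fold change (-5.11) than any of them. The part of cell division in their fall was not tested.

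**Figure D4:**
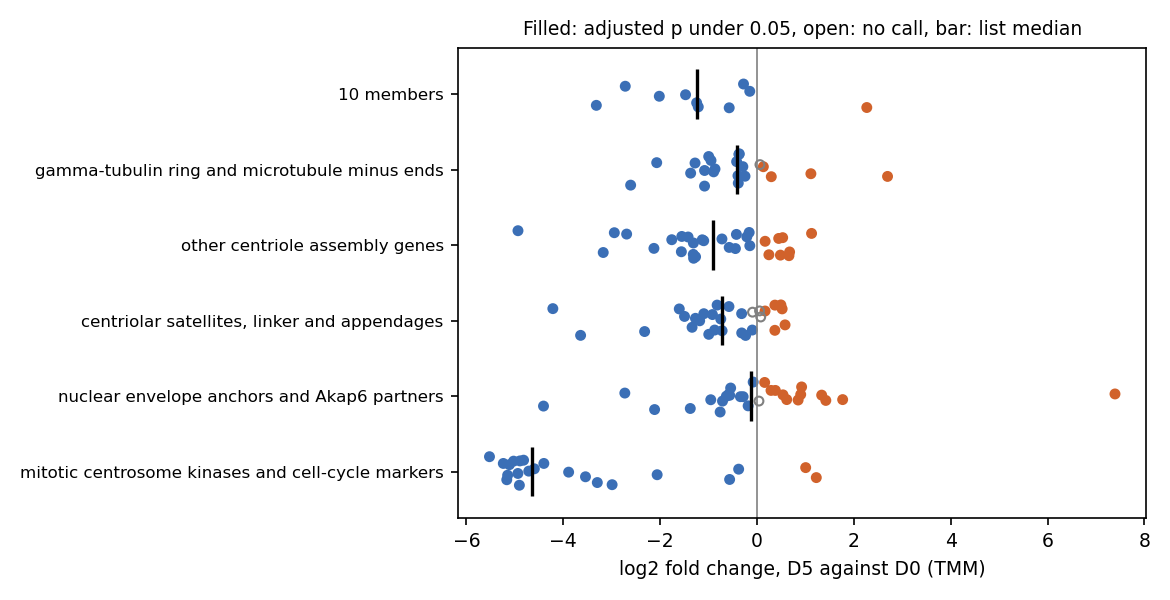
Log2 fold change at D5 against D0 of the 10 genes and of the tested genes of the 5 lists, where each point is a gene, blue is called lower, orange called higher, open not called, and the black bar is the list median. The medians run from -0.13 for the nuclear envelope anchors to -4.65 for the mitotic kinases and cell-cycle markers, with the 10 genes at -1.23.

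The calls of *Akap6*, *Cdk5rap2* and the 5 centriole duplication genes held under every setting tried, including DESeq2, other scalings, other filters and leaving out any library. Log2 fold changes without a library ran from -3.36 to -3.25 for *Plk4*, from -2.76 to -2.69 for *Sass6*, from -2.05 to -1.99 for *Cep192*, from -1.504 to -1.44 for *Cep152*, from -1.24 to -1.19 for *Cntrob* and from -1.27 to -1.23 for *Cdk5rap2*. Those of the least changed genes ran from -0.60 to -0.53 for *Pcnt*, from -0.30 to -0.25 for *Pcm1* and from -0.18 to -0.13 for *Akap9*.

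**Figure D5:**
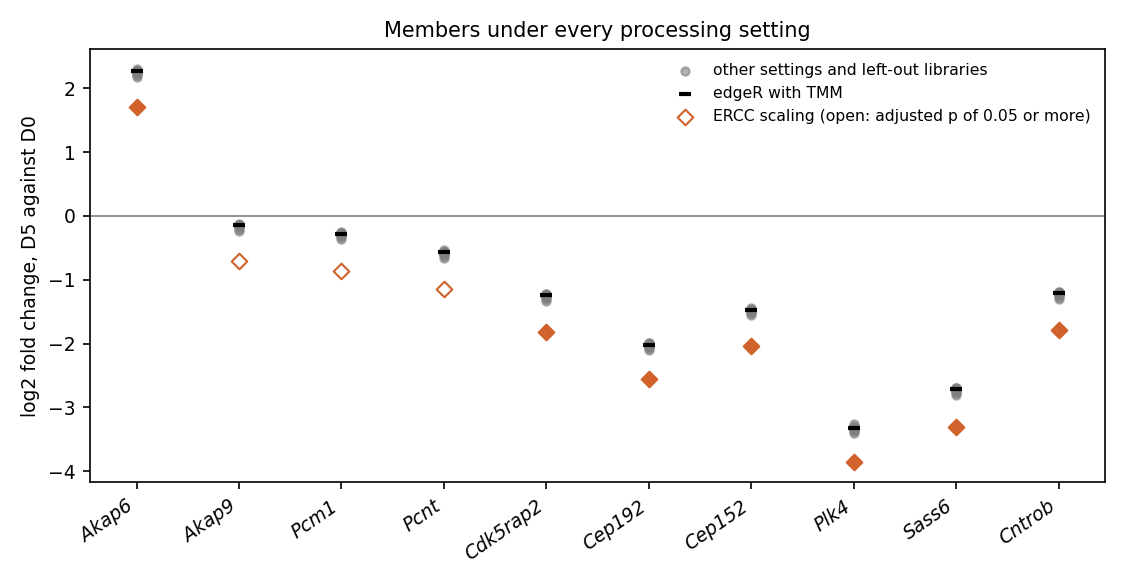
Log2 fold change of each gene at D5 against D0 with TMM (black bar), with scaling to the ERCC spike-ins (diamonds, open where the adjusted p was 0.05 or more) and under the other settings and left-out libraries (grey). Scaling to the spike-ins lowers every gene by a similar amount, from 2.27 to 1.71 for *Akap6* and from -3.32 to -3.86 for *Plk4*.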

How the data were processed

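RNA of 6 cultures was sequenced, 1 library each, and the labels describe the 3 samples of a group as separately cultured. The authors aligned reads to GRCm38 (mm10) and deposited raw counts per gene from featureCounts. The labels name Tophat2 and the paper's methods HISAT2 as the aligner. The annotation release, strand setting, read length and treatment of multiply matching reads are not given in the sources used here. The 92 ERCC spike-in rows (0.720% to 2.09% of counts) and 1 unnamed row equal to the column total entered neither library sizes nor tests. From the counts, TMM-scaled CPM, TPM over the exonic length of GENCODE M21 (99.8% of gene rows matched), log2 fold changes and p-values were computed with edgeR 4.0.16 (R 4.3.3), using filterByExpr, the quasi-likelihood test and Benjamini-Hochberg adjustment over 16290 genes at a threshold of 0.05. A standard error is the size of the log2 fold change over the root of its F statistic. Fold changes of single genes and percentages of a D0 mean were converted from the fitted log2 fold changes. They can differ slightly from ratios of the printed means. The test was tested on simulated data.

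Replicates differed by more than sampling noise (chi-square per degree of freedom 2.28 to 3.71). Alternatives were DESeq2 1.42.0, upper-quartile, total-count and ERCC scaling, no filter, at least 10 counts in every library, a replicate block, glmTreat, *Cep192* as the denominator of ratios, and leaving out each library. Named list genes are up to 3 with the largest rise and 3 with the largest fall per list, among those called, whose mean count reached 100 in a group and no overlap, plus *Pde4dip*. *Mki67*, *Trmt13*, *Gm42893*, *Tedc2*, *Cd68* and *Kdr* were named after their values were seen. The members and lists were chosen with earlier results of these data known.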

Additional observations from a re-analysis of the deposited data

How the results depend on the processing

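The choice that mattered most was scaling to the ERCC spike-ins, whose share ranged from 0.720% to 2.09% within the D5 group. It shifted the median log2 fold change over all genes to -0.58, called 5560 genes in place of 13510, and made 67.4% of calls lower in place of 49.2%. *Pcnt* (log2 fold change -1.14, adjusted p = 0.0744 by edgeR), *Pcm1* (-0.86, adjusted p = 0.191) and *Akap9* (-0.71, adjusted p = 0.287) were then not called, leaving 6 of the 10 genes lower and *Akap6* higher, where 23.0% of all genes tested were lower and 11.1% higher. In the gamma-tubulin list 10 of 22 genes were lower and 1 higher, and among the 28 nuclear envelope anchors 7 and 1, a share lower near that of all genes. None of the other centriole assembly genes, the satellite, linker and appendage genes, or the mitotic genes was called higher (0 each by edgeR, and 0 each at an unadjusted p under 0.05), while 16 of 30, 15 of 29 and 18 of 22 were called lower. *Mzt1* (-0.27), *Cep350* (-0.0032), *Ssx2ip* (-0.054) and *Mib1* (-0.064) changed sign, and 8 other named list genes, all higher with TMM, kept their sign without a call. The cause of these differences was not tested.

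Across the 10 genes, 127 of 130 values under other tools, scalings, filters, the block and left-out libraries kept their direction and their call, and the other 3 are those above. Under glmTreat the same 3 genes were not called (adjusted p = 0.62 for *Pcnt* and 1 for *Pcm1* and *Akap9*). Leaving out a library gave 13151 to 13221 genes called. With *Cep192* in place of *Pcm1* as the denominator, the log2 ratio of *Pcnt* rose by 1.44, of *Cdk5rap2* by 0.77, of *Cep152* by 0.54 and of *Cntrob* by 0.80, where it fell against *Pcm1*. That of *Akap6* rose by 4.28 and of *Akap9* by 1.87, and the differences of *Plk4* and *Sass6* were -1.304 and -0.70. Same-numbered replicates correlated at 0.0223, 0.123 and 0.0570, and differently numbered ones from -0.0803 to 0.0231. Values this small do not settle whether the numbers pair the cultures. With a replicate block 13558 genes were called, and the same 9 lower and 1 higher of the 10 genes.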

Other observations

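*Akap6* and *Akap9* belong to the A-kinase anchoring proteins, which hold protein kinase A at sites in the cell. The family was looked up by symbol after the data were seen. Of its 13 tested genes 5 were called lower at D5, 5 higher and 3 not called (*Akap7*, *Akap17b* and *Akap5*), near the 40.8% lower and 42.2% higher of all genes tested. *Akap7* (log2 fold change -0.14, adjusted p = 0.0565 by edgeR) was called lower with upper-quartile or total-count scaling, without a filter, and without D0 replicate 3 or D5 replicate 2 (adjusted p = 0.0031 to 0.0336), and had adjusted p up to 0.312 under the others. The largest change was in *Akap12* (gravin), a scaffold at the plasma membrane. It fell from a mean of 211 ± 3.67 CPM to a mean of 12.02 ± 0.203 CPM (SD, n = 3), with log2 fold change -4.13 (adjusted p = 6.8e-35 by edgeR's quasi-likelihood test), or -4.70 under ERCC scaling. *Akap1*, a mitochondrial anchor, stood at 39.3 ± 0.621 CPM in myoblasts and 82.4 ± 1.89 CPM in myotubes, with log2 fold change 1.07 (adjusted p = 5.1e-21 by edgeR's quasi-likelihood test), but it was not called with scaling to the ERCC spike-ins (0.49, adjusted p = 0.479). The log2 fold changes of *Akap8l*, *Akap13* and *Akap11* were 0.80, 0.38 and 0.28 with TMM but 0.26, -0.19 and -0.28 under ERCC scaling, where none of them was called (adjusted p = 0.724, 0.799 and 0.697 by edgeR) and that of *Akap13* and *Akap11* changed sign. Those of *Akap2*, *Akap8* and *Akap10* were -1.38, -0.52 and -0.31 with TMM and -2.03, -1.09 and -0.89 under ERCC scaling, where *Akap2* kept its call (adjusted p = 0.0016 by edgeR) and *Akap8* and *Akap10* did not (adjusted p = 0.0924 and 0.179). The rise of *Akap6*, 2.27, was the largest of the 13 genes, also with scaling to the spike-ins (1.71).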
